A study of Homo sapiens with 18 samples.

Results

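The genes described here are the human transcription factors of the SOX, GATA, PAX, TBX, LHX and SIX-type families. They were taken as every protein-coding row of the deposited table whose symbol is one of these family names followed by a number alone, with PAX5 left out. This gave 60 of 58735 genes, or 60 of 19951 protein-coding genes: 19 SOX, 6 GATA, 8 PAX, 13 TBX, 8 LHX and 6 SIX-family genes. By mean level over the 6 mice, 13 were expressed (at least 1 CPM, a count scaled by library size), 14 were low (0.1 up to 1 CPM) and 33 were silent (under 0.1 CPM).

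The cells were of the OCI-Ly18 line, long established from a human diffuse large B-cell lymphoma (DLBCL), carrying green fluorescent protein (GFP), grown under the skin of NSG mice, a strain that lacks its own lymphocytes. The CART19-tazemetostat group was mice M_767, M_768 and M_774. From day 3 after implantation these mice received tazemetostat (EPZ6438, 150 mg/kg daily by oral gavage), an inhibitor of the histone methyltransferase EZH2, for 14 days and were then infused with CART19 cells, T cells carrying a chimeric antigen receptor. The CART19-vehicle group was mice M_766, M_769 and M_770, which received vehicle over the same days and the same infusion. GFP+ tumour cells were sorted 11 days after the infusion and their total RNA was sequenced. Every mouse had received CART19 cells, so the comparison is of earlier EZH2 inhibition within CART19-treated tumours of 1 cell line. Whether dosing went on after the infusion is not stated, and the UTD infusion that the labels also mention was not analysed here.

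These families bind DNA through an HMG box (SOX), zinc fingers (GATA), a paired domain (PAX), a T-box (TBX) or a homeodomain (the LIM-carrying LHX proteins and the SIX-family proteins), and they set cell fate in the embryo. In cells that do not use them, many of their genes lie under H3K27me3, the histone mark that the PRC2 complex deposits through EZH2. In mature B cells the best known factor of these families is PAX5, while GATA3 and TBX21 act in T cells.

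The windows around the annotated starts of SOX12, SIX4, SIX6 and GATA3 are shown because these genes span the range of levels. Each is 300 bases, 250 before and 50 after a transcript start, written 5′ to 3′ on the gene's strand, from RefSeq on GRCh38.p14. Capitals mark the CG dinucleotides, which read the same on both strands. SOX12, the highest member, has its window at chr20:325302-325601 on the plus strand. That of SIX4, the next highest in CPM, is chr14:60724302-60724601 on the minus strand, and that of the low SIX6 is chr14:60508896-60509195 on the plus strand. The window of the silent GATA3 is chr10:8045083-8045382 on the plus strand, at the most upstream of its listed starts.
SOX12: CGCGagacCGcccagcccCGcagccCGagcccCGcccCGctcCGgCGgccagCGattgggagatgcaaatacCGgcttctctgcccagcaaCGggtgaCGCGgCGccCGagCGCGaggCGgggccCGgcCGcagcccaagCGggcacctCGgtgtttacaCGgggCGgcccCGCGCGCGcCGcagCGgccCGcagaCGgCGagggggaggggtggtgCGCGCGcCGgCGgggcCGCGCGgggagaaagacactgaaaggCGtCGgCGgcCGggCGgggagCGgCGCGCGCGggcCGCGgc
SIX4: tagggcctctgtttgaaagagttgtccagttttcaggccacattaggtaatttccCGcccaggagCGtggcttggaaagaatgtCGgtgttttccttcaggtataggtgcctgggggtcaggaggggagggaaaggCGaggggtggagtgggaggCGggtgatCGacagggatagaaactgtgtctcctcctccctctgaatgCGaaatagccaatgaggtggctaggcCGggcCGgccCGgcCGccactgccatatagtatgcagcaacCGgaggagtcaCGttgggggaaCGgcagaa
SIX6: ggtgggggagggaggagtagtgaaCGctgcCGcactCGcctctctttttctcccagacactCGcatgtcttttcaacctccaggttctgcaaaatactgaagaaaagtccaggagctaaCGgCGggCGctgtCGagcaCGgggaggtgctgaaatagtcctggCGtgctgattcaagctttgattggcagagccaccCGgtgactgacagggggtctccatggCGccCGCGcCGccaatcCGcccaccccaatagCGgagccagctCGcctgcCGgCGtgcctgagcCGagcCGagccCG
GATA3: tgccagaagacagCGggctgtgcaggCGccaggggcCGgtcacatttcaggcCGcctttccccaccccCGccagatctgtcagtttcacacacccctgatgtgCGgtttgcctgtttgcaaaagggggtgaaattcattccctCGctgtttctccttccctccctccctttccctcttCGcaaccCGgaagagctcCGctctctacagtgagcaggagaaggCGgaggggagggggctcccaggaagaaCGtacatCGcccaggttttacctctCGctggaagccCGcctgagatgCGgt
The SOX12 window held 54 CG dinucleotides, that of SIX4 14, that of SIX6 23 and that of GATA3 16. At least 1 CG was present in 95.9% of such windows over 27305 genes, with a median of 13 and quartiles of 3 and 28. The silent GATA3 window thus held slightly more CG dinucleotides than that of the expressed SIX4. This order depended on the window: the first 300 bases of the transcript, used further below, held 20 in GATA3 and 28 in SIX4.

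Library totals ran over 16124494 to 26336269 counts, with 3 libraries (A, B and C) per mouse. Summed per mouse, totals were 59132193 to 69816184 in tazemetostat mice and 55712115 to 66053406 in vehicle mice. A gene with 0 counts in a mouse could have had up to 0.0422 to 0.0543 CPM, from 3 counts of the mouse's scaled total, which covers counting error only. Library C of mouse M_768 (tazemetostat) stood apart from the others, with a scaling factor of 0.901 against 0.978 to 1.03 in the other 17. The labels do not say what the letters A to C stand for. The edgeR, DESeq2 and permutation p-values come from sums per mouse and measure the spread between these mice. Those of limma-voom come from single libraries, with mouse as a random effect and a correlation within a mouse that all genes share.

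Markers of the labelled cell type were present: all 10 B-cell and lymphoma markers were expressed, with summed levels of 6375 to 6701 CPM in tazemetostat mice and 6306 to 7024 CPM in vehicle mice (two-sided exact permutation p = 0.9, n = 3 each). The largest part of these sums was CD74, with means of 3243 CPM in tazemetostat mice and 3240 CPM in vehicle mice. Of the 10 genes, 6 had positive and 4 negative log2 fold changes, and edgeR called 0. Of 16 T-cell markers, 7 were expressed and CD3D and CD3G had 0 counts, with sums of 387 to 422 CPM in tazemetostat mice and 417 to 459 CPM in vehicle mice (exact permutation p = 0.2). Within the T-cell list CD247 lay higher in tazemetostat mice without overlap (log2 fold change 0.43, adjusted p = 0.465 in edgeR and 0.0104 in limma-voom). ZAP70 (-0.21) and LCK (-0.39) lay lower without overlap. These 3 of 8 tested T-cell markers (37.5%) stand beside 12.6% of all genes tested. Limma-voom called 1.38% of all genes. Of 12 fibroblast and endothelial markers 3 were expressed, and CDH5, COL3A1 and LUM had 0 counts. Their sums were 11.2 to 12.8 CPM in tazemetostat mice and 8.08 to 13.1 CPM in vehicle mice (exact permutation p = 0.6). Of the 7 tested, 5 had positive log2 fold changes, with a median of 0.32, and PDGFRB, a pericyte and fibroblast receptor, did not overlap, at 0.424 to 0.775 CPM in tazemetostat mice and 0.123 to 0.344 CPM in vehicle mice (log2 fold change 1.34, edgeR adjusted p = 0.496). Of 9 myeloid and NK markers 1 was expressed, with sums of 10.7 to 11.9 CPM in tazemetostat mice and 11.5 to 13.7 CPM in vehicle mice (exact permutation p = 0.2). These sums are mostly that 1 gene, NCAM1, with means of 9.75 CPM in tazemetostat mice and 11.4 CPM in vehicle mice. The smallest p that 3 mice against 3 allow is 0.1, and the part of other cells in the values of the members was not tested.

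Most members were silent. Expressed members made up 21.7% of the 60, against 59.2% of all protein-coding genes, and silent members 55% against 29.7%. With 0 counts in all 6 mice were 14 members (23.3%), against 2902 protein-coding genes (14.5%). The SIX-type genes were the only family in which every gene had at least 1 count. PAX had 4 of 8 genes at 0, SOX 6 of 19, TBX 2 of 13, and GATA and LHX 1 each. The 60 members together averaged 236.7 CPM, of which SOX12 alone gave 76.9%, the 13 expressed members 97.7% and the 33 silent members 0.185%.

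Family sums are given as values, with no test. The SOX genes summed to 187 ± 3.88 CPM in tazemetostat mice and 206 ± 6.35 CPM in vehicle mice (SD, n = 3 each), which followed SOX12. Sums of the SIX-family genes were 16.5 ± 1.38 CPM in tazemetostat mice and 13.6 ± 2.57 CPM in vehicle mice. The TBX genes summed to 6.67 ± 0.356 CPM in tazemetostat mice and 7.86 ± 0.692 CPM in vehicle mice. PAX sums were 11.5 ± 1.13 CPM in tazemetostat mice and 11.6 ± 0.324 CPM in vehicle mice. LHX sums were 3.72 ± 0.901 CPM in tazemetostat mice and 4.10 ± 0.860 CPM in vehicle mice, and GATA sums 2.78 ± 0.543 and 2.58 ± 0.324 CPM in tazemetostat and vehicle mice. These are bulk samples, in which fewer cells with a transcript and less of it per cell cannot be told apart.

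**Figure D1:**
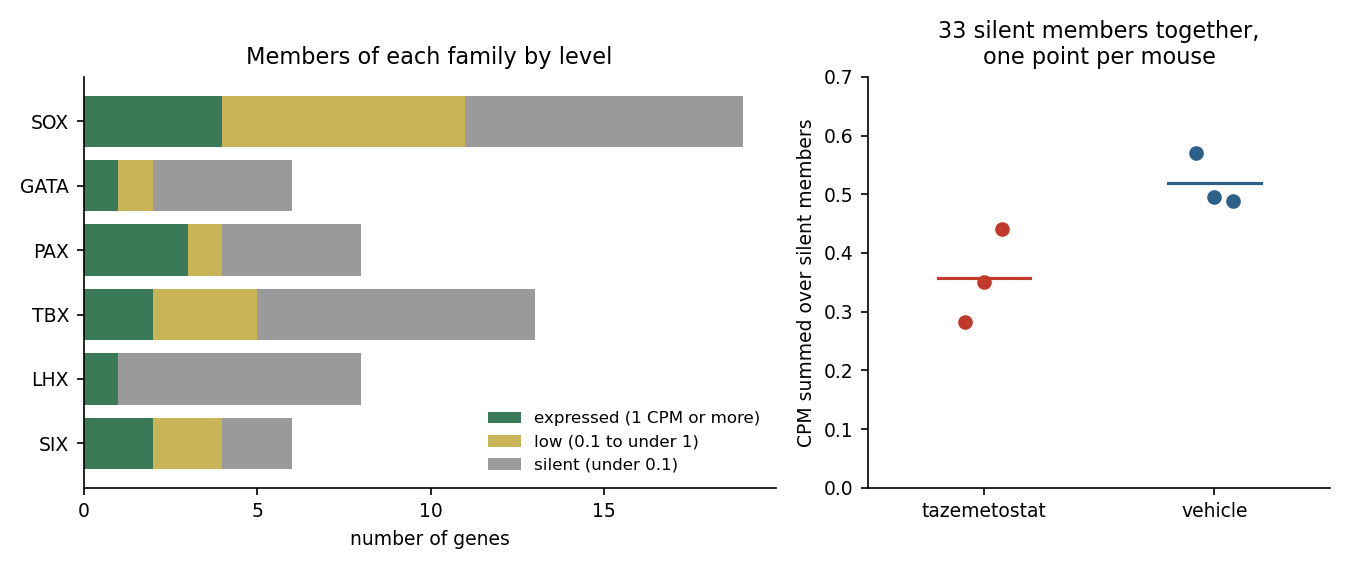
Expressed, low and silent members per family (number of genes), and the summed level of the silent members in each mouse (CPM, tazemetostat mice left of vehicle mice). LHX has 7 of 8 members silent, and the silent sums are 0.282 to 0.441 CPM in tazemetostat mice and 0.489 to 0.570 CPM in vehicle mice.

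Tazemetostat against vehicle was tested with edgeR's quasi-likelihood test on the mouse sums over 20301 genes, of which 24 were members (the 13 expressed and 11 of the 14 low ones). None of the 24 passed an adjusted p of 0.05. Over all genes tested, 7 did (0.0345%). The smallest adjusted p of a member was 0.666, for SOX2. At an unadjusted p under 0.05 there were 3 members, SOX4 (lower) and SOX7 and SOX2 (higher), or 3 of 24 beside 6.55% of all genes (3.34% higher and 3.21% lower). DESeq2 called 0 of the 20 members to which it gave an adjusted p (smallest 0.611), beside 0.684% of all genes so tested, and 5 of the 20 had an unadjusted p under 0.05, beside 6.52%. Limma-voom called 0 of 16 (smallest 0.239), beside 1.38% of all genes, and 5 of the 16 had an unadjusted p under 0.05, beside 10.6%.

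Fold changes of the tested members lay on both sides of 0. There were 12 positive and 12 negative values, with a median log2 fold change of 0.02 and a range of -0.41 to 1.09. All 20301 genes had 48.1% positive values and a median of -0.01. The median size of a log2 fold change, whatever its sign, was 0.16 in the members and 0.13 over all genes. In 6 of 24 members (25%) the 3 tazemetostat mice did not overlap the 3 vehicle mice, beside 12.6% of all genes tested (6.58% higher and 6.0% lower): SOX7, PAX6 and SOX2 lay higher in tazemetostat mice and SOX12, PAX8 and TBX19 lower. Low members pass the filter more easily where 1 group is high, so these shares describe the tested members and not all 60.

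**Figure D2:**
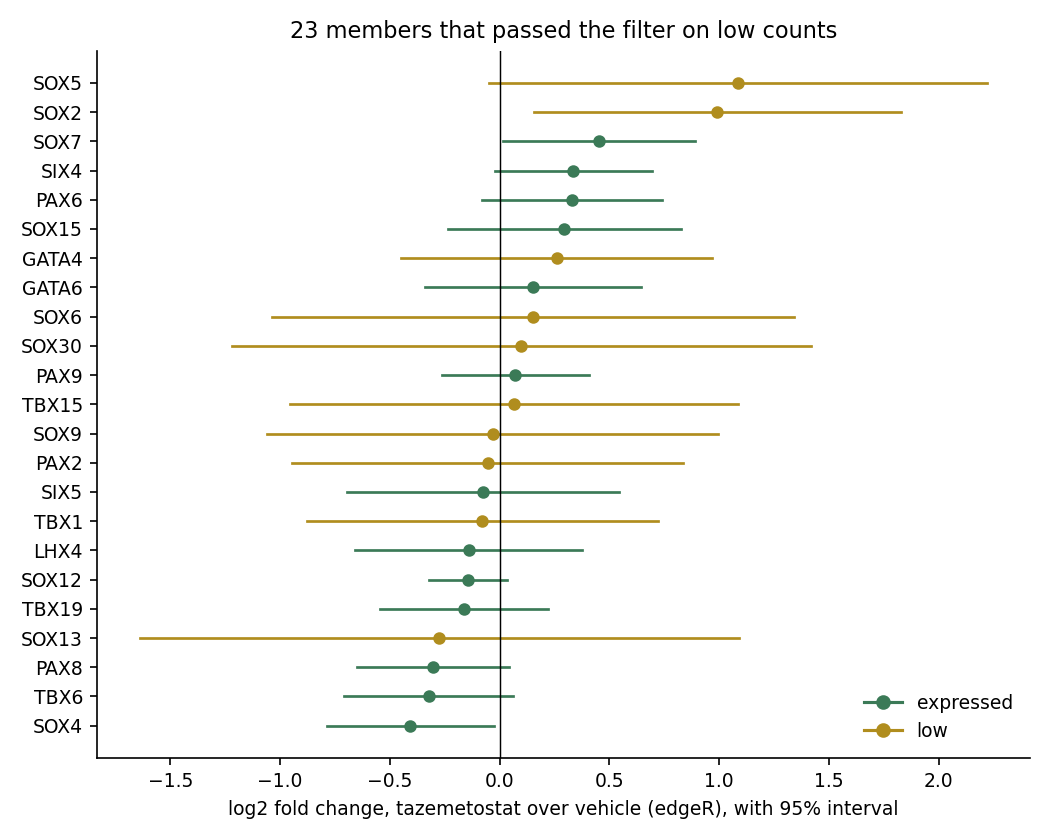
Log2 fold change of tazemetostat over vehicle for 23 of the 24 tested members, highest at the top, coloured by class (expressed or low), with 95% intervals from the edgeR fit. The values lie on both sides of 0, from -0.41 (SOX4) to 1.09 (SOX5), and the intervals of SOX4, SOX7 and SOX2 leave out 0, with no adjusted p under 0.666.

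SOX12 (ENSG00000177732, chr20:325595-330224, plus strand) dominated the families. It encodes a factor of the SoxC group, which also holds SOX4 and SOX11. Its level was 175, 171 and 173 CPM in tazemetostat mice M_767, M_768 and M_774, against 188, 196 and 190 CPM in vehicle mice M_766, M_769 and M_770. All 3 tazemetostat mice lay below all 3 vehicle mice, at 173 ± 2.01 CPM and 191 ± 4.29 CPM (SD, n = 3 each). The edgeR log2 fold change was -0.14 (95% interval -0.32 to 0.03, adjusted p = 0.828). Per length, its 39.3 RPKM (CPM divided by kilobases of exon) placed it 928th of 19951 protein-coding genes, above 95.3% of them, while no other member lay above more than 55.2%. PAX5, the B-cell factor that the rule leaves out, stood at 62.7 RPKM, with 593 ± 128 CPM in tazemetostat mice and 577 ± 36.2 CPM in vehicle mice (edgeR log2 fold change 0.04, adjusted p = 0.981).

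The other SoxC genes were far scarcer. SOX4 (chr6:21592768-21598619), which early B-cell development in mouse requires, had 7.66, 5.90 and 5.41 CPM in tazemetostat mice M_767, M_768 and M_774, against 7.10, 9.66 and 8.40 CPM in vehicle mice M_766, M_769 and M_770. The ranges overlapped, through mouse M_767 of the tazemetostat group and mouse M_766 of the vehicle group. Its log2 fold change of -0.41 (95% interval -0.79 to -0.03, edgeR unadjusted p = 0.0388, adjusted p = 0.720) was the lowest among tested members. SOX11, a diagnostic marker of mantle cell lymphoma, had 0 counts in all 6 mice.

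Of the SoxF genes, which act in endothelial and vascular development, SOX7 was expressed, SOX18 had 2 counts in all and SOX17 had 0. SOX7 was at 2.72, 2.32 and 2.56 CPM in tazemetostat mice, against 2.0, 2.09 and 1.45 CPM in vehicle mice. The groups did not overlap and the log2 fold change was 0.45 (95% interval 0.01 to 0.89, edgeR unadjusted p = 0.0441, adjusted p = 0.743). Of the endothelial markers, CDH5 had 0 counts, VWF 12 and CLDN5 71 over all mice (CLDN5 log2 fold change 0.59, edgeR adjusted p = 0.881), and PECAM1 averaged 0.816 CPM (log2 fold change -0.03). Their part in the level of SOX7 was not tested. SOX15, an HMG-box gene on chromosome 17, had 2.48, 1.49 and 2.24 CPM in tazemetostat mice and 1.36, 1.76 and 1.96 CPM in vehicle mice, with overlapping groups (log2 fold change 0.29, edgeR adjusted p = 0.895).

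SIX4 (ENSG00000100625, chr14:60709528-60724348, minus strand) was the highest of the SIX-family genes. SIX-type proteins are homeodomain factors that work with EYA coactivators in muscle, sensory organ and kidney development. Its levels were 15.5, 13.9 and 13.8 CPM in tazemetostat mice, against 8.85, 14.2 and 11.2 CPM in vehicle mice. Vehicle mouse M_769 overlapped the tazemetostat mice and vehicle mouse M_766 was the lowest of the 6. The means were 14.4 ± 0.927 CPM in tazemetostat mice and 11.4 ± 2.69 CPM in vehicle mice, a log2 fold change of 0.34 (95% interval -0.02 to 0.69, edgeR unadjusted p = 0.0635, adjusted p = 0.781).

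The other SIX-family genes were lower. Per length, SIX4 had 1.94 RPKM, SIX5 0.387 RPKM and SIX6 0.0534 RPKM. SIX6, an eye and pituitary factor, had 0.268, 0.0915 and 0.0847 CPM in tazemetostat mice and 0.185, 0.137 and 0.127 CPM in vehicle mice and was too low to test. SIX5, which lies beside DMPK on chromosome 19, was at 1.72, 1.45 and 0.847 CPM in tazemetostat mice and 1.73, 1.32 and 1.19 CPM in vehicle mice (log2 fold change -0.08, edgeR adjusted p = 0.981). The pair SIX3 and SIX2, 59.084 kb apart on chromosome 2, was silent, as were TBX2 and TBX4, 42.938 kb apart on chromosome 17.

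**Figure D3:**
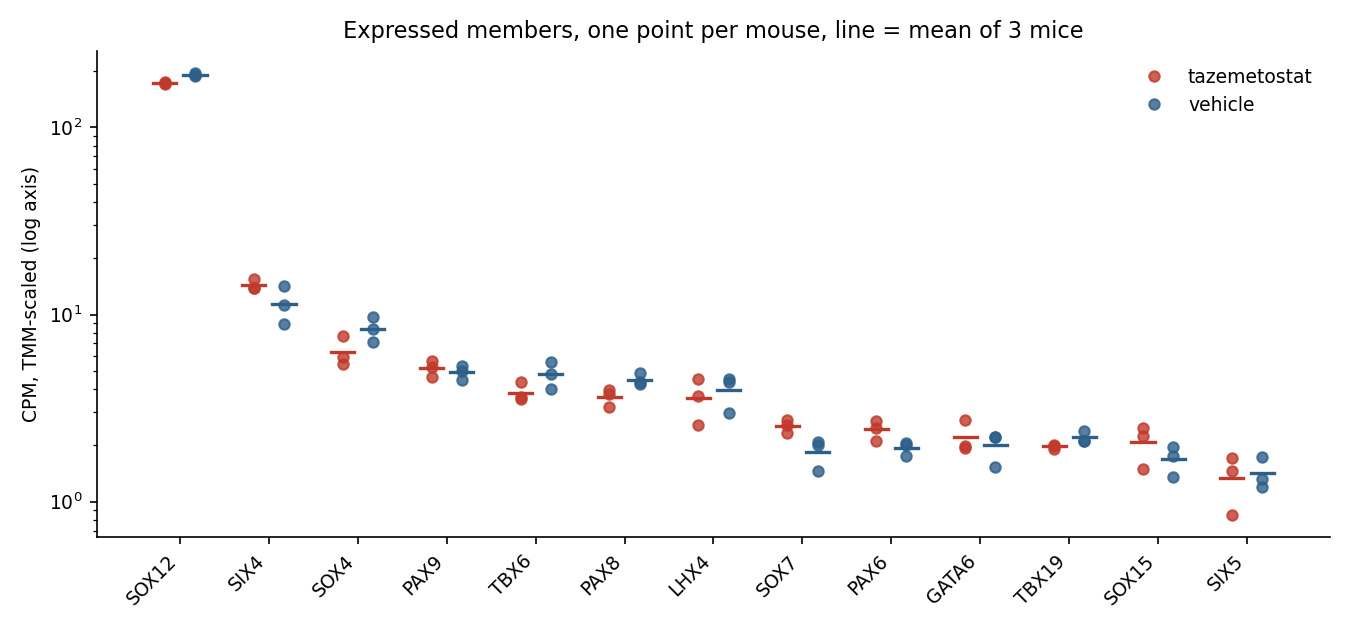
Level of each of the 13 expressed members in each mouse (CPM, log axis), tazemetostat mice left of vehicle mice, with each group's mean. SOX12 stands at 171 to 175 CPM in tazemetostat mice and 188 to 196 CPM in vehicle mice, and the other 12 lie under 16 CPM in every mouse.

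Among PAX genes, PAX9, PAX8 and PAX6 were expressed. PAX9, needed for teeth and thymus, had 5.65, 5.22 and 4.61 CPM in tazemetostat mice and 4.44, 5.32 and 4.98 CPM in vehicle mice, with overlapping groups (log2 fold change 0.07, 95% interval -0.26 to 0.41, edgeR adjusted p = 0.972). PAX8, a thyroid and kidney factor, had 3.77, 3.95 and 3.19 CPM in tazemetostat mice, against 4.84, 4.36 and 4.25 CPM in vehicle mice. All tazemetostat mice lay below the vehicle mice (log2 fold change -0.30, 95% interval -0.65 to 0.04, edgeR adjusted p = 0.806). PAX6, the eye and neural factor, had the opposite order, with 2.70, 2.49 and 2.10 CPM in tazemetostat mice against 1.74, 2.0 and 2.06 CPM in vehicle mice (log2 fold change 0.33, 95% interval -0.08 to 0.74, edgeR adjusted p = 0.828). PAX2, a kidney factor, was low at 0.214 to 0.339 CPM in tazemetostat mice and 0.163 to 0.385 CPM in vehicle mice. PAX1, PAX3, PAX4 and PAX7 had 0 counts.

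TBX6, a factor of the paraxial mesoderm, had 3.52, 4.33 and 3.63 CPM in tazemetostat mice and 5.56, 4.79 and 3.98 CPM in vehicle mice. The groups overlapped in vehicle mouse M_770 and tazemetostat mouse M_768 (log2 fold change -0.32, 95% interval -0.71 to 0.06, edgeR adjusted p = 0.816). TBX19, which drives the corticotroph lineage of the pituitary, had 1.99, 1.91 and 2.02 CPM in tazemetostat mice, against 2.10, 2.39 and 2.12 CPM in vehicle mice. Its groups did not overlap, with a log2 fold change of -0.16 (edgeR adjusted p = 0.928) and a gap of less than 0.1 CPM between the nearest mice.

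GATA6, a factor of heart and gut endoderm, was the expressed GATA gene, with 2.73, 1.98 and 1.93 CPM in tazemetostat mice and 2.22, 2.22 and 1.54 CPM in vehicle mice (log2 fold change 0.15, edgeR adjusted p = 0.954). LHX4, a pituitary and motor neuron factor, was the expressed LHX gene, with 4.51, 2.58 and 3.66 CPM in tazemetostat mice and 2.99, 4.53 and 4.34 CPM in vehicle mice (log2 fold change -0.14, edgeR adjusted p = 0.963). Both pairs of groups overlapped. In mouse M_768, library C held 0.865 CPM of LHX4, against 2.86 and 3.70 CPM in libraries A and B. Without mouse M_768 the log2 fold change of LHX4 was 0.05.

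Some expressed members share exon bases with other genes, and whether reads were assigned by strand is not stated. In 4 of the 13, an overlapping gene had at least the member's own CPM. ACBD6 at 59.1 CPM covers 30.8% of the exon bases of LHX4, and ELP4 at 15.7 CPM covers 25.2% of those of PAX6. PAX8-AS1 at 24.7 CPM shares 685 bases with PAX8, and MPDU1 at 41.2 CPM shares 15 with SOX15. SOX7 shares 39.4% of its exon bases with PINX1 on the same strand (0.00763 CPM), and SIX5 shares 56.8% with AC074212.1 (0.441 CPM). The levels of LHX4, PAX6, PAX8, SOX15, SOX7 and SIX5 are therefore uncertain, as are those of the low members SOX6, TBX1 and SOX10, which overlap C11orf58, GNB1L and POLR2F.

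Among low members with similar counts, some SOX genes varied widely from mouse to mouse. The coefficient of variation over the 6 mice was 58.1% for SOX13, 55.3% for SOX5, 48.2% for SOX6, 46.3% for SOX2 and 44.8% for SOX9, where counting error alone gives 15.9% to 18.5%. GATA4, at a similar count, had 22.0% with a counting error of 18.9%, and SOX12 had 5.73% with 0.940%. SOX5, SOX6 and SOX13 form the SoxD group, which acts with SOX9 in cartilage.

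Among the SoxD genes each was lowest in a vehicle mouse. SOX6 was at 0.929, 0.412 and 0.661 CPM in tazemetostat mice and 0.139, 0.821 and 0.869 CPM in vehicle mice. SOX13 was at 0.324, 0.412 and 0.542 CPM in tazemetostat mice and 0.848, 0.616 and 0.0543 CPM in vehicle mice. SOX5 was at 0.718, 0.534 and 0.644 CPM in tazemetostat mice and 0.20, 0.599 and 0.0905 CPM in vehicle mice. Vehicle mouse M_766 was thus the lowest for SOX6 and the highest for SOX13, while vehicle mouse M_770 was the highest but one for SOX6 and the lowest for SOX13 and SOX5.

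The low values of SOX13 and SOX5 in vehicle mouse M_770 and of SOX6 in vehicle mouse M_766 recurred across the libraries of these mice. In vehicle mouse M_770, SOX13 had 0, 2 and 1 counts in libraries A, B and C, where vehicle mouse M_766 had 23, 13 and 19. SOX6 had 3, 3 and 3 counts in vehicle mouse M_766, against 19, 9 and 20 in vehicle mouse M_770. SOX5 had 4, 1 and 0 counts in vehicle mouse M_770, against 18, 10 and 10 in tazemetostat mouse M_774. In other mice the libraries differed widely. Vehicle mouse M_769 had 20, 14 and 2 counts of SOX13 and 6, 11 and 18 of SOX5, and tazemetostat mouse M_768 had 17, 7 and 3 of SOX6. The log2 fold changes were 1.09 for SOX5 (95% interval -0.05 to 2.22, edgeR adjusted p = 0.768), 0.15 for SOX6 (-1.04 to 1.34, adjusted p = 0.981) and -0.27 for SOX13 (-1.64 to 1.09, adjusted p = 0.974), so changes of more than 2-fold either way lie inside the intervals of SOX6 and SOX13.

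**Figure D4:**
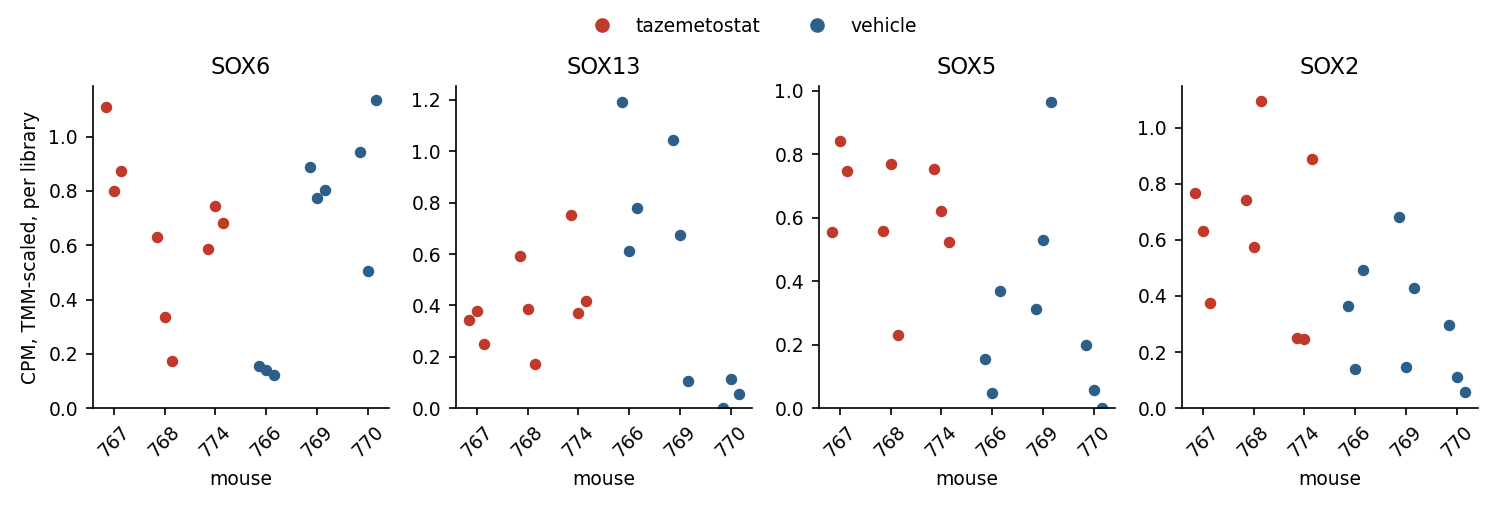
CPM of SOX6, SOX13, SOX5 and SOX2 in each library, grouped by mouse, with the 3 tazemetostat mice left of the 3 vehicle mice. SOX13 is near 0 in all libraries of vehicle mouse M_770 and SOX6 is low in all libraries of vehicle mouse M_766, while the tazemetostat mouse sums of SOX13, 0.324 to 0.542 CPM, lie between the vehicle extremes.

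SOX2 (chr3:181711924-181714436), a factor of pluripotent and neural progenitor cells, had the smallest p of the 24 members tested in edgeR. SOX4 had the smallest among the 20 members with an adjusted p in DESeq2. It also had the smallest among the 16 in limma-voom, which gave SOX2 no value. SOX2 was at 0.591, 0.778 and 0.458 CPM in tazemetostat mice, against 0.339, 0.411 and 0.163 CPM in vehicle mice. The groups did not overlap, and the nearest mice were M_774 (tazemetostat) and M_769 (vehicle). The means were 0.609 ± 0.161 CPM in tazemetostat mice and 0.304 ± 0.127 CPM in vehicle mice (SD, n = 3 each), a log2 fold change of 0.99 (95% interval 0.16 to 1.83, edgeR unadjusted p = 0.0244, adjusted p = 0.666). Libraries of 1 mouse spread as widely, with 6, 4 and 17 counts in tazemetostat mouse M_774 and 7, 3 and 12 in vehicle mouse M_766.

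SOX9, a cartilage and testis factor, was at 0.521, 0.534 and 0.407 CPM in tazemetostat mice and 0.185, 0.462 and 0.869 CPM in vehicle mice, so that all tazemetostat values lay within the vehicle range (log2 fold change -0.03). GATA4, a heart factor, had 0.390 to 0.563 CPM in tazemetostat mice and 0.308 to 0.525 CPM in vehicle mice (log2 fold change 0.26). TBX15, a limb and skeletal factor, TBX1, a pharyngeal factor, and SOX30, a testis factor, had 0.0678 to 0.491 CPM in tazemetostat mice and 0.0925 to 0.416 CPM in vehicle mice over the 3 genes, with log2 fold changes of 0.07, -0.08 and 0.10. SOX10, a neural crest factor below the filter, had 5, 6 and 7 counts in tazemetostat mice and 18, 11 and 8 in vehicle mice, without overlap. Some signs depended on single mice: those of LHX4, GATA6, SIX5, SOX6, SOX9 and SOX13 each turned with at least 1 of the mice left out.

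The silent members had few counts in both groups, which follows from their class, set by the mean over the mice of both groups. A member raised far enough in tazemetostat mice alone would have been classed as low or expressed. The counts below therefore cannot show whether genes silent in vehicle mice were raised by tazemetostat. The 33 genes together had 20, 23 and 26 counts in tazemetostat mice M_767, M_768 and M_774, against 37, 29 and 27 in vehicle mice M_766, M_769 and M_770. That is 0.358 ± 0.0797 CPM in tazemetostat mice and 0.518 ± 0.0451 CPM in vehicle mice, without overlap. All 5927 silent protein-coding genes summed to 79.5 ± 2.10 CPM in tazemetostat mice and 81.7 ± 5.08 CPM in vehicle mice. The number of silent members with any count was 7, 9 and 10 in tazemetostat mice and 9, 9 and 11 in vehicle mice.

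GATA2 and TBX2, singled out after their values were seen, held most of the gap in the silent sum. GATA2, a factor of blood stem cells, had 0, 0 and 1 counts in tazemetostat mice and 5, 4 and 4 in vehicle mice. TBX2, a heart and limb factor, had 1, 1 and 5 counts in tazemetostat mice and 11, 6 and 3 in vehicle mice. The other 31 silent members had 19, 22 and 20 counts in tazemetostat mice and 21, 19 and 20 in vehicle mice.

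GATA1, the erythroid factor, was the highest silent gene, with 8, 2 and 5 counts in tazemetostat mice and 8, 6 and 4 in vehicle mice. TBX4, a hindlimb factor, had 3, 5 and 5 counts in tazemetostat mice and 2, 3 and 4 in vehicle mice. LHX9, a gonad factor, had 2, 5 and 2 counts in tazemetostat mice and 0, 4 and 3 in vehicle mice, and LHX3, a pituitary factor, 2, 1 and 3 in tazemetostat mice and 5, 3 and 1 in vehicle mice. Counts overlapped in all 4 genes. LHX6 had 12 counts over all mice, and LHX2, named after its values were seen, had 2, 3 and 1 counts in tazemetostat mice and 1, 0 and 0 in vehicle mice.

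The remaining silent members were at or next to 0. TBX3, SOX18, LHX8, SIX3 and TBX20 had 2 counts each over the 6 mice, and LHX5, SOX21, GATA3, TBX18, SIX2 and TBX10 had 1 each. The 14 with 0 counts were GATA5, LHX1, PAX1, PAX3, PAX4, PAX7, SOX1, SOX3, SOX8, SOX11, SOX14, SOX17, TBX5 and TBX22. No silent member had a count in all 3 tazemetostat mice and 0 in all vehicle mice, as 18 of the 5927 silent protein-coding genes did, and the reverse also held for 0 members and 18 protein-coding genes.

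The T-cell factors among the members were nearly unread. GATA3, which directs helper T-cell differentiation, had 1 count, in vehicle mouse M_769. TBX21 (T-bet), which drives interferon-gamma programmes in T and NK cells, had 11, 13 and 6 counts in tazemetostat mice and 9, 8 and 4 in vehicle mice. Of 11 target genes of these factors in lymphocytes, 3 could be tested and 0 were called by edgeR, DESeq2 or limma-voom (0 at an edgeR unadjusted p under 0.05): PRF1 (log2 fold change -0.23), CCL5 (0.14) and IL12RB2 (-0.66, edgeR adjusted p = 0.803). Limma-voom gave no value for IL12RB2. This gene had 0.239 to 0.320 CPM in tazemetostat mice and 0.344 to 0.586 CPM in vehicle mice, without overlap.

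The 5′ ends of silent members were rich in CpG. In the first 300 bases of the most upstream GENCODE 29 transcript, the median ratio of observed to expected CpG was 0.813 in silent members, 0.755 in low and 0.767 in expressed members. Over protein-coding genes it was 0.405 in silent, 0.557 in low and 0.772 in expressed genes. A ratio of at least 0.6 was found in 27 of 33 silent members (81.8%), beside 31.2% of silent protein-coding genes, and in 10 of 13 expressed members (76.9%), beside 72.6% of expressed ones. The 14 members with 0 counts had a median of 0.794. In the first 200 bases the order of the members' classes turned, with medians of 0.771 in silent and 0.818 in expressed members. Of the 14 members under 0.6, the 5 lowest were PAX4 (0.0474), SOX6 (0.0605), GATA1 (0.202), TBX10 (0.208) and SOX4 (0.278). These ratios hold for the most upstream annotated transcript alone, and whether the cells start transcription there was not tested.

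**Figure D5:**
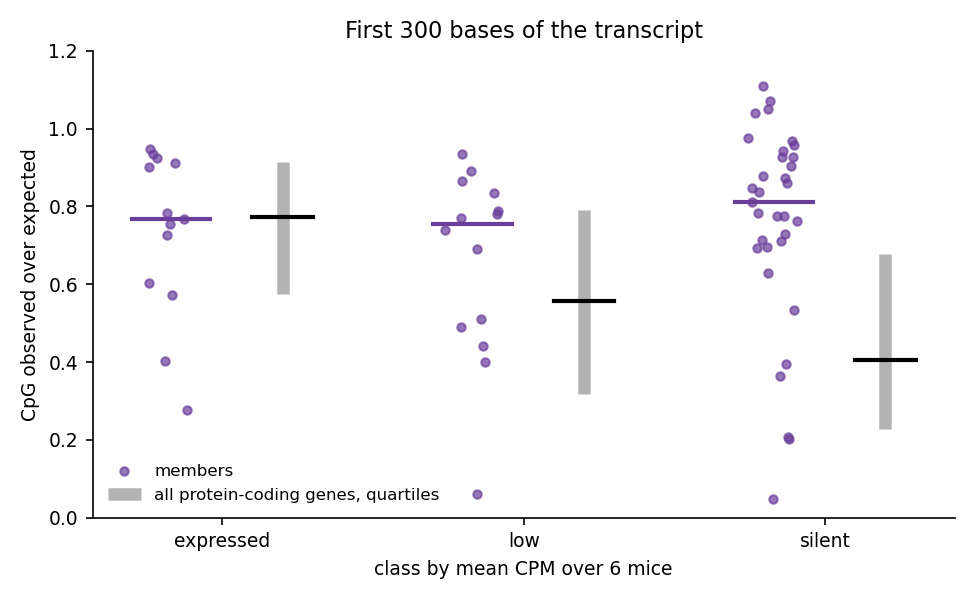
Ratio of observed to expected CpG in the first 300 bases of the transcript, by class, for members (points, with their median) beside all protein-coding genes of the same class (median and quartiles). Silent members have a median of 0.813 where silent protein-coding genes have 0.405, while expressed members and genes lie at 0.767 and 0.772.

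Partners of these factors were read from the same fit. Of 27 cofactor genes 20 were tested, 9 with positive and 11 with negative log2 fold changes and a median of -0.00, and edgeR called 0 (3 at an unadjusted p under 0.05). These 3 of 20 stand beside 6.55% of all genes tested. In 5 of the 20 (25%) the groups did not overlap, beside 12.6% of all genes tested. EYA4, a coactivator of SIX-type proteins, had 1.37, 0.686 and 1.10 CPM in tazemetostat mice, against 0.478, 0.274 and 0.308 CPM in vehicle mice. The groups did not overlap, and the log2 fold change was 1.56 (SE 0.343). Its adjusted p was 0.310 with edgeR, 0.0174 with DESeq2 and 0.129 with limma-voom, so the call depended on the tool.

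TCF3 (E2A), the E protein that joins GATA factors in LMO2 and LDB1 complexes and also sits above PAX5 in B-cell development, had 935, 921 and 878 CPM in tazemetostat mice, against 1138, 1099 and 1106 CPM in vehicle mice. The log2 fold change was -0.29 (SE 0.0901), with an adjusted p of 0.523 in edgeR, 0.214 in DESeq2 and 0.00388 in limma-voom. SSBP4, an LDB1 partner, had 40.4 ± 3.81 CPM in tazemetostat mice and 49.0 ± 6.88 CPM in vehicle mice (-0.28, edgeR adjusted p = 0.715), and LYL1, a haematopoietic bHLH factor, 9.81 ± 0.624 and 12.5 ± 2.78 CPM in tazemetostat and vehicle mice (-0.35, edgeR adjusted p = 0.764). The GATA cofactors ZFPM1 and ZFPM2 and the LIM-only gene LMO3 had 0 counts.

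Relatives with other names gave 0 calls in edgeR among 4 tested of 9 and 0 at an unadjusted p under 0.05. These were the GATA-type TRPS1 (log2 fold change 0.21), the T-box genes MGA (0.12) and EOMES (-0.20) and the LIM homeobox gene ISL2 (0.04), while ISL1 and LMX1B had 0 counts. Of 29 genes for PRC2 and PRC1 subunits and H3K27 demethylases, 14 had positive and 15 negative log2 fold changes, with a median of -0.02. None was called by edgeR, and 3 had an unadjusted p under 0.05: the PRC2 subunit EED (0.22, adjusted p = 0.679), the PRC1 subunit CBX6 (-0.21, adjusted p = 0.700) and the alternative methyltransferase EZH1 (-0.21, adjusted p = 0.714). CBX2, another PRC1 subunit, came next (-0.18, adjusted p = 0.766). The 3 of 29 stand beside 6.55% of all genes tested. In 8 of the 29 (27.6%) the groups did not overlap, 3 higher and 5 lower in tazemetostat mice, beside 12.6% of all genes tested. DESeq2 and limma-voom also called 0 of the relatives and 0 of these 29 genes.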

How the data were processed

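Total RNA of sorted tumour cells was read in 18 libraries from 6 mice. The authors deposited raw read counts per gene, as the whole numbers and the file headers show, beside a gene length in bases. The submitters' processing notes name hg38 and DESeq2, the second without version or role. Aligner, counter and strandedness were not given in the sources used here. Of 58735 gene IDs, 58724 had the same start, end and strand in GENCODE release 29, as did all 60 members, whose deposited lengths equal their summed exon bases.

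Counts were summed over the 3 libraries of a mouse, since the mouse was treated, and compared by edgeR 4.0.16 under R 4.3.3 (TMM, filterByExpr with a minimum count of 10, quasi-likelihood test, Benjamini-Hochberg adjustment over 20301 genes, threshold 0.05). Filtered genes had 0.0602% of all counts. Intervals are 95%. The common biological coefficient of variation was 0.140. CPM are scaled with TMM factors, and RPKM divides them by the deposited length. Intervals are 95%. The steps were tested on simulated data. Marker sums were compared by an exact permutation test (two-sided).

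Members and lists were chosen with earlier results of these data known. Named are all expressed members; low members with the 6 highest means, without overlap or with an unadjusted p under 0.05; all silent members, with values for the 6 of largest count; and from other lists the called genes and the 4 with the smallest p. Further low and silent genes were named after their values were seen. Alternatives were other scalings and filters, DESeq2 1.42.0, limma-voom (limma 3.58.1) on single libraries with mouse as random effect, each mouse left out, library C of mouse M_768 left out, and other class limits. The RefSeq windows covered 40 of 60 members (66.7%, under the 80% needed), so the CpG check on them was void and the first 300 bases of GENCODE transcripts were used, a choice made after seeing the data. The values of 1 low member that passed the filter are not reported here, though counts and sums over the members include it.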

Additional observations from a re-analysis of the deposited data

How the results depend on the processing

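No member was called in any of 13 settings. The smallest adjusted p of the 18 named members in any setting was 0.206, for SOX5. Of these 18, 12 kept the sign of their log2 fold change in every setting that gave them a value, which was all 13 except for SOX2 (11), SOX9 and SOX13 (12 each). The other 6 changed it when a mouse was left out, with ranges of -0.34 to 0.0495 for LHX4, -0.0262 to 0.25 for GATA6, -0.29 to 0.17 for SIX5, -0.32 to 0.51 for SOX6, -0.43 to 0.61 for SOX9 and -0.79 to 0.33 for SOX13. SOX9 also came to 0.0502 without library C of mouse M_768. SOX5 ran from 0.68 to 2.08 and SOX2 from 0.71 to 1.26 when a mouse was left out. The cause of these shifts was not tested.

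Over all genes, the 7 calls of edgeR were 120 with DESeq2, 225 with limma-voom on libraries and 252 without a filter, and 0 to 59 with a mouse left out (1 without mouse M_767, 0 without M_768, M_774 or M_769, 26 without M_766 and 59 without M_770). The lists of partners, relatives, chromatin genes and lymphocyte target genes had 20, 4, 29 and 3 genes tested in edgeR. In these lists 1 gene was called with DESeq2 (EYA4), 1 with limma-voom (TCF3) and 1 without a filter (EYA4), against 0 with edgeR. Over all genes, DESeq2 called 0.684% and limma-voom 1.38%. The tazemetostat to vehicle ratio of the B-cell marker sum ran from 0.959 to 1.02 with a mouse left out.

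Other class limits gave 11 to 15 expressed and 30 to 37 silent members. The log2 ratio of the silent sum was -0.56 to -0.32 under other class limits and -0.71 to -0.39 with a mouse left out. With a mouse left out, 6 to 9 of the 24 tested members (25% to 37.5%) had no overlap, beside 19.8% to 28.2% of all genes tested. In the first 200 bases the median CpG ratio was 0.818 in expressed and 0.771 in silent members, so their order turned. The narrower RefSeq window was not run, since that check was void. No paired analysis was possible because each mouse is in 1 group and the mice share no replicate number. With 3 mice a group and a few counts per library, the log2 fold changes of low members have wide intervals, and silent members rest on at most 33 counts each over all mice.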
